A study of Arabidopsis thaliana with 6 samples.

Results

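The nitrate excretion transporter group is a row of related transporter genes on chromosome 3 of *Arabidopsis thaliana*, with 2 other protein-coding genes inside it. It holds 7 of the 14265 genes that the array annotation names, AT3G45650 (*NAXT1*), AT3G45660, AT3G45680, AT3G45690, AT3G45700, AT3G45710 and AT3G45720, measured by 6 of the 22746 probe sets tested. The group was chosen from a measured value, the fall of AT3G45680 in *ninja-1* roots on these same arrays, and its relatives were then taken by their place in the gene row and not by their own values. The change of AT3G45680 is therefore given as a description, with no interval and no p-value. It enters the counts of called sets below, but nothing is read from its call. The list of changed genes that the study drew from these arrays also holds *NAXT1*, so that its change here is a second reading of the same arrays. The remaining comparison asks whether the relatives of AT3G45680 fell with it.

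Transcripts of whole roots were compared between WT (Col-0) and *ninja-1*, which is in the Col-0 background and lacks the function of NINJA, an adaptor that joins JAZ repressors to a co-repressor and so holds jasmonate (JA) responses down. Both genotypes carried the *JAZ10pro-GUSPlus* (*JGP*) reporter and were left untreated on a diluted Murashige and Skoog medium, which supplies both nitrate and ammonium. Roots were taken from 5-do seedlings, and each of 3 biological replicates per genotype was a pool of 120 roots on 1 Affymetrix ATH1 array, 6 arrays in all. A single *ninja* allele was measured, and in whole roots fewer cells of a type and less RNA per cell cannot be told apart.

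Plant roots take up nitrate and also release it. The transporters of this group belong to the NPF family (NRT1/PTR family), membrane proteins that move nitrate, chloride, peptides, hormones or glucosinolates, mostly together with protons. NAXT1 (NPF2.7) sits in the plasma membrane of root cells and excretes nitrate, most clearly when the cells are acidified, and gave the group its name. Of its relatives, AT3G45680 (NPF2.3) helps to release nitrate into the xylem, AT3G45700 (NPF2.4) loads chloride into the xylem and AT3G45710 (NPF2.5) takes part in the release of chloride from the root.

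The values are GCRMA values on the log2 scale as deposited. Their floor was 2.11 on these arrays, where 26.5% to 27.0% of sets per array were found (within 0.05). Correlation across probe sets, which are not replicates, was 0.998 to 0.999 between arrays of a genotype and 0.994 to 0.996 between genotypes. Of 14 root marker genes 3 could be measured by name, and all 3 (*PYK10*, *EXPA7* and AT1G62500) were well above the floor in both genotypes. *PYK10*, a very abundant root glucosidase, rose by 0.30 in log2 (standard error, SE, 0.02, limma adjusted p = 0.00838). The 1 leaf marker measured of 12, *RCA* for rubisco activase, lay between 10.1 and 10.5 on all arrays, where the array medians were 5.95 to 6.03. Its absence would be looked for in a clean root sample, and it was not absent. The cause was not tested. *RCA* did not separate the genotypes (log2 change 0.11, limma adjusted p = 0.816). AT5G05600, a JA-responsive oxygenase gene, rose by 2.13 (adjusted p = 0.00636), whereas *NINJA* itself was not analysed here because the annotation used names no probe set for it.

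A single probe set measured *NAXT1* and AT3G45660 together and cannot tell the 2 genes apart. Its values were 7.59, 7.53 and 7.67 in WT and 9.13, 9.16 and 8.93 in *ninja-1*. All *ninja-1* arrays lay above all WT arrays, with no overlap. Means were 7.60 ± 0.07 in WT and 9.07 ± 0.13 in *ninja-1* (SD, n = 3 each). The difference of 1.48 in log2 (95% interval 1.27 to 1.69, SE 0.08) equals 2.78-fold, with an adjusted p of 0.00836 in limma. Which of the pair carries the rise was not tested, and no level of either gene alone is given.

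AT3G45680, the xylem nitrate transporter gene, moved the other way. Its values were 5.95, 5.84 and 5.85 in WT and 4.14, 4.15 and 4.57 in *ninja-1*. Every *ninja-1* array was below every WT array, and *ninja-1* replicate 3 was the least reduced. Means were 5.88 ± 0.06 in WT and 4.29 ± 0.25 in *ninja-1* (SD, n = 3 each), the latter still above the floor. Its log2 change was −1.59, or 3.01-fold lower, and 17 of all probe sets had a more negative change.

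**Figure D1:**
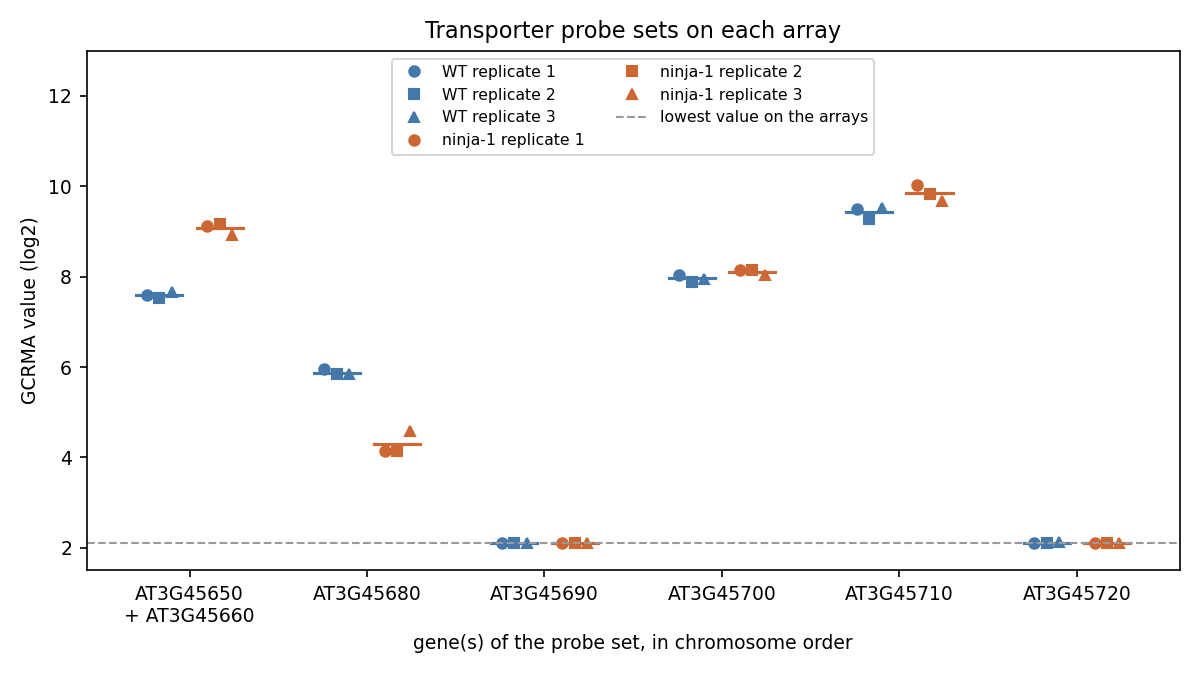
GCRMA values (log2, vertical axis) of the 6 probe sets of the transporter group on each of the 3 WT and 3 *ninja-1* arrays, with a bar at each mean and a dashed line at the lowest value of the arrays, 2.11. The shared *NAXT1* and AT3G45660 set is higher in *ninja-1* (9.07 against 7.60), AT3G45680 is lower (4.29 against 5.88), and AT3G45690 and AT3G45720 lie on the floor in both genotypes. Heights of different probe sets are not comparable with each other.

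The chloride transporter genes at the other end of the row did not fall. AT3G45700 had values of 8.04, 7.89 and 7.95 in WT and 8.15, 8.14 and 8.03 in *ninja-1*. The genotypes overlapped, since *ninja-1* replicate 3 lay just under WT replicate 1. They differed by 0.15 in log2 (95% interval −0.002 to 0.29, SE 0.06), with a limma adjusted p of 0.395. A 2-fold fall lies outside this interval.

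AT3G45710, the neighbouring chloride transporter gene, had values of 9.50, 9.28 and 9.51 in WT and 10.04, 9.83 and 9.68 in *ninja-1*. All *ninja-1* arrays were above all WT arrays, the closest at 9.68 in *ninja-1* and 9.51 in WT. With means of 9.43 ± 0.13 and 9.85 ± 0.18 (SD, n = 3 each), the difference was 0.42 in log2 (95% interval 0.09 to 0.75, SE 0.12). Its limma adjusted p of 0.276 missed the threshold.

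AT3G45690 (NPF2.2) and AT3G45720 (NPF2.1) were not measured above the floor in either genotype. AT3G45690 stood at 2.11 on all 6 arrays. AT3G45720 was between 2.11 and 2.13 on all of them. A probe set on the floor in WT can be seen to rise but not to fall, so that these genes do not answer whether a fall was shared. The arrays show that neither left the floor in *ninja-1*.

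Over the group, 1 of 6 probe sets was called higher (adjusted p under 0.05 and at least 2-fold), beside 0.492% of all probe sets tested, and 1 was called lower, beside 0.0484%. The set called lower is AT3G45680, by which the group was found, so nothing is read from these shares. None of the 5 probe sets of its relatives was called lower, which at 0.0484% over all sets would hold for almost any 5. Of these 5, 2 were on the floor and could not show a fall. The 3 off the floor all had positive changes, 1 of them past the adjusted p (0.805% of all probe sets tested were higher past it). No overlap between the genotypes, with *ninja-1* above, was found for 2 of the 6 sets (7.75% of all probe sets tested). With *ninja-1* below it was found for 1 (10.1%), AT3G45680 itself. The median log2 change was 0.07 over the 6 sets and 0.00 over all probe sets tested. Nothing is read from the former, which takes in AT3G45680 and the 2 sets on the floor. Over all probe sets tested 112 were called higher and 11 lower, or 170 and 40 after median centring of the arrays.

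The sizes of these changes depended little on any 1 array, but the call of the shared set did. With 1 array left out, the log2 change of the shared *NAXT1* and AT3G45660 set stayed between 1.43 and 1.55, while its adjusted p in limma was over 0.05 without WT replicate 1 (0.0610), WT replicate 2 (0.0594), *ninja-1* replicate 1 (0.0571) or *ninja-1* replicate 2 (0.0544). The log2 change of AT3G45680 was −1.56, −1.61 and −1.60 without WT replicate 1, 2 and 3, and −1.52, −1.52 and −1.73 without *ninja-1* replicate 1, 2 and 3. The call of AT3G45680, from which nothing is read, was kept in 1 of these 6 fits, the one without *ninja-1* replicate 3.

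The genes beyond the ends of the row were read in the same way. Of the 10 protein-coding genes on each side, 11 in all were measured, by 10 probe sets, and 0 of these were called or passed the adjusted p in limma. With so few calls over all probe sets, few or none are to be found among any 10. At an unadjusted p under 0.05, 2 of them were lower (7.23% of all). Their log2 changes ran from −0.18 to 0.06, with a median of 0.00. *TET3* (AT3G45600), for a tetraspanin, had the smallest p of these neighbours. Its values were 10.54, 10.53 and 10.56 in WT and 10.39, 10.32 and 10.38 in *ninja-1*, or −0.18 in log2 (SE 0.02, limma adjusted p = 0.0529). The genotypes did not overlap for *TET3*, at a change far short of 2-fold. The same held, with *ninja-1* below, for 10.1% of all probe sets tested.

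Nearest to the group on the other side, AT3G45730, named for its place and not by its p, was on or next to the floor on all arrays (2.11 to 2.20). AT3G45740 differed by −0.11 in log2 units (SE 0.03, limma adjusted p = 0.258), short of the threshold. AT3G45800, measured by a set shared with AT2G11620, was on the floor on all 6 arrays (limma adjusted p = 0.771). AT3G45670, which lies inside the row between AT3G45660 and AT3G45680 and is not one of the transporters, was on the floor on all 6 arrays. Of the 2 other protein-coding genes inside the row, AT3G45670 alone was measured. The shared *NAXT1* and AT3G45660 set and AT3G45680, with their opposite changes, thus stand on either side of AT3G45670 and of an unmeasured gene.

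**Figure D2:**
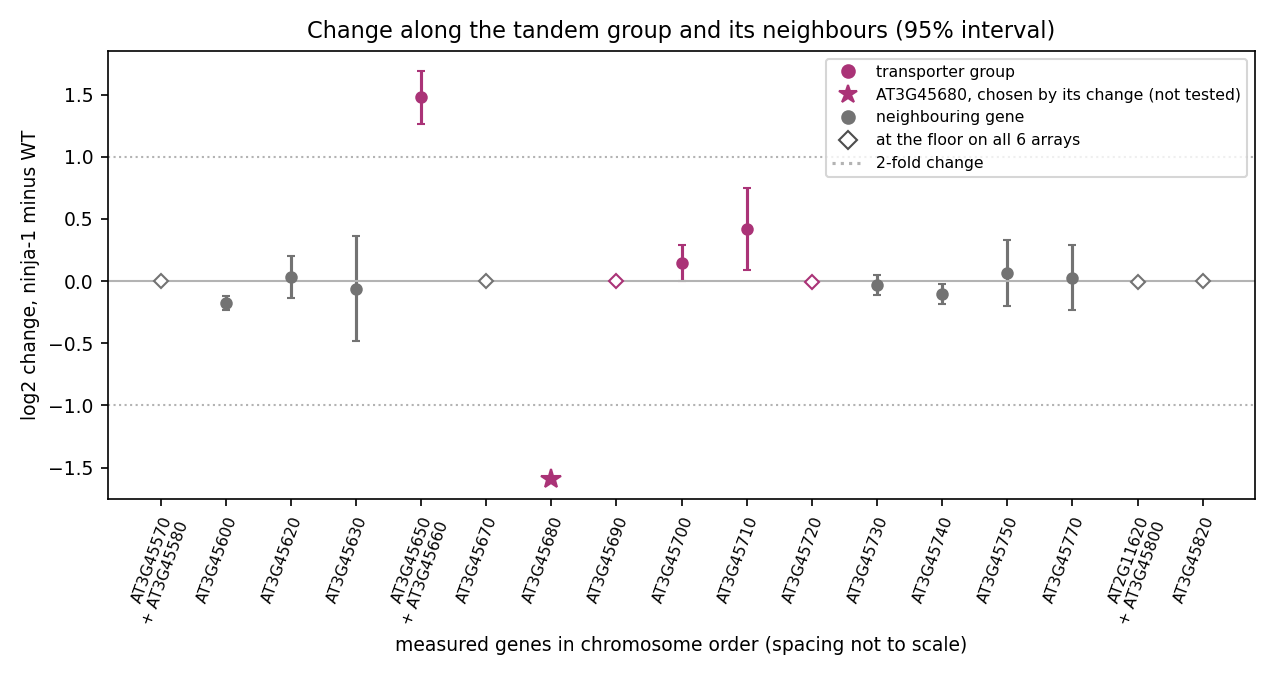
Log2 change (*ninja-1* minus WT, vertical axis, with 95% intervals from limma except for AT3G45680, shown as a star) of the measured genes in their chromosome order, the transporter group in purple and its neighbours in grey, with dotted lines at a 2-fold change and open diamonds for probe sets on the floor on all 6 arrays. Beyond the dotted lines lie the shared *NAXT1* and AT3G45660 set, at 1.48, and AT3G45680, at −1.59. The neighbouring genes lie between −0.18 and 0.06.

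The rest of the NPF family gives the wider picture. Of 46 NPF genes outside the group, 29 were measured by a probe set of their own and 8 of these stayed on the floor. In limma 3 of the 29 were higher past the adjusted p (0.805% of all probe sets tested) and 0 were lower (0.374%). At an unadjusted p under 0.05 the numbers were 7 (5.73% of all) and 3 (7.23%). The median log2 change of the 29 was 0.00, the same as over all probe sets. Of the 3 that passed, 2 move glucosinolates and 1 moves nitrate.

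*GTR1* (AT3G47960, NPF2.10), an importer of glucosinolates, belongs to the same NPF2 subfamily as the group. Its values were 6.77, 6.73 and 6.96 in WT and 7.89, 7.82 and 7.82 in *ninja-1*, with no overlap. It rose by 1.02 in log2 (SE 0.07, limma adjusted p = 0.0158). *GTR2* (AT5G62680, NPF2.11), its close relative, had values of 9.38, 9.30 and 9.27 in WT and 10.02, 10.07 and 9.85 in *ninja-1*, and rose by 0.66 (SE 0.07, limma adjusted p = 0.0429). The adjusted p of each of these transporters stayed under 0.05 in 1 of the 6 fits with 1 array left out (up to 0.0952 for *GTR1* and 0.173 for *GTR2*). Within NPF2, 9 of 14 genes have a probe set of their own, and 4 of these stayed on the floor.

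AT1G22550 (NPF5.16), for a transporter that moves nitrate out of the vacuole, had the clearest rise of the family outside the group. Its values were 8.40, 8.52 and 8.48 in WT and 9.86, 9.99 and 10.00 in *ninja-1*. The genotypes were far apart, and the rise was 1.48 in log2 (SE 0.06, limma adjusted p = 0.00466). Its adjusted p was under 0.05 in each of the 6 fits with 1 array left out (0.0219 to 0.0413).

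AT1G22550 also lies in a row of NPF genes, and its measured neighbours did not all move with it. AT1G22570 (NPF5.15) had values of 4.31, 4.27 and 3.89 in WT and 5.12, 5.57 and 5.12 in *ninja-1*, or 1.11 higher in log2 (SE 0.19, limma adjusted p = 0.113). AT1G22540 (NPF5.10) had values of 7.71, 7.58 and 7.63 in WT and 7.41, 7.45 and 7.41 in *ninja-1*, a difference of −0.21 (SE 0.04, limma adjusted p = 0.112). Neither passed the adjusted p, and the difference between neighbours was not tested. These neighbours, and the others named below, were chosen for mention after their values had been seen.

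Another row of NPF genes held both raised values and values on the floor. AT1G72140 (NPF5.12), another transporter that empties the vacuole of nitrate, had values of 5.09, 5.04 and 4.68 in WT and 6.28, 6.71 and 6.83 in *ninja-1*. Its log2 change of 1.67 (SE 0.20) was larger than that of AT1G22550, but with a wider spread between replicates its adjusted p was 0.0566. AT1G72125 (NPF5.13) differed by 0.44 (adjusted p = 0.326), whereas AT1G72130 (NPF5.11) was on the floor on all 6 arrays. The lowest changes of the family outside the group were those of AT2G26690 (NPF6.2), at −0.62 (adjusted p = 0.265), and AT2G40460 (NPF5.1), at −0.54 (adjusted p = 0.119). Both had all *ninja-1* arrays below all WT arrays, and both changes were short of 2-fold. No overlap, with *ninja-1* below, was found for 3 of the 29 (10.1% of all probe sets tested). With *ninja-1* above it was found for 7 (7.75%).

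**Figure D3:**
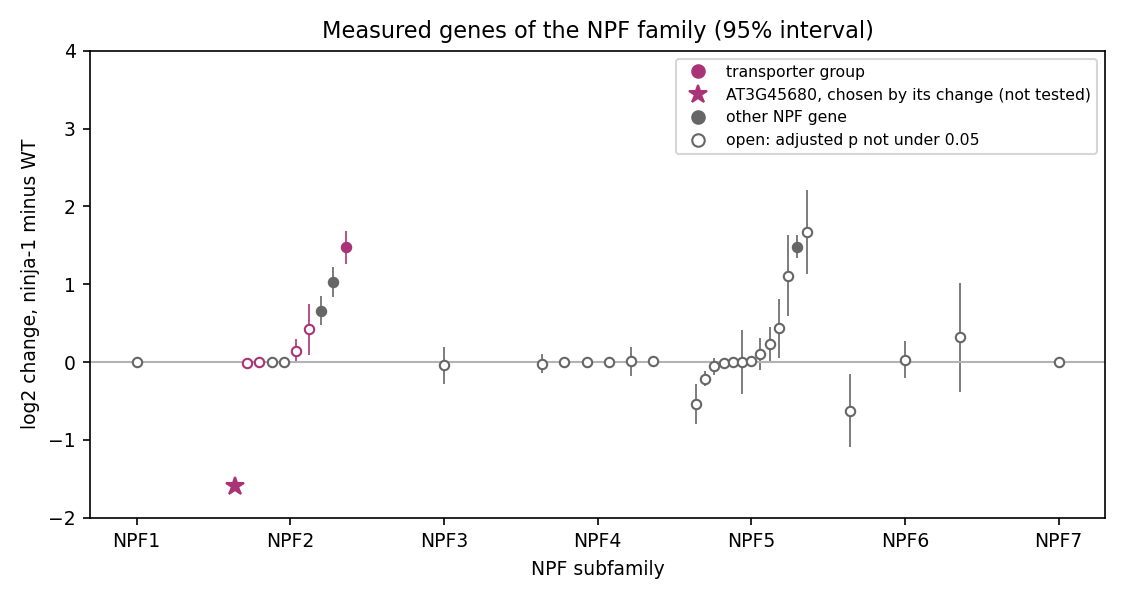
Log2 change (*ninja-1* minus WT, vertical axis, with 95% intervals except for AT3G45680, shown as a star) of each measured NPF gene, by subfamily, with the transporter group in purple, other NPF genes in grey and filled points where the adjusted p was under 0.05. The group spans the range from −1.59 to 1.48. Outside it the filled points are AT1G22550 (1.48), *GTR1* (1.02) and *GTR2* (0.66).

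Other parts of nitrate handling could hardly be read by name. The annotation used gives no gene for 8807 of the 22746 probe sets tested, so a gene without a value here may still be on the array. Of 9 genes of the NRT2 and NRT3 nitrate uptake system 1 was measured by name, AT1G12940, and it was on the floor on all arrays. Of 17 genes of nitrate signalling 3 were measured and 0 passed the adjusted p in limma or an unadjusted p under 0.05. These were AT3G60320 (log2 change −0.19, adjusted p = 0.645), AT1G68670 (0.09, adjusted p = 0.735) and AT1G25550 (0.07, adjusted p = 0.962). Genes of nitrate assimilation (0 of 17), CLC and SLAC anion channels (0 of 12) and plasma membrane proton pumps (0 of 11) were not analysed here, because the annotation used names no probe set for them.

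Genes with the pattern most like that of AT3G45680 over the 6 arrays were sought among 13435 probe sets with a single name, by the Euclidean distance of log2 values centred on their mean. The nearest was AT5G62420, at a distance of 0.34, with values of 6.59, 6.54 and 6.72 in WT and 5.08, 5.10 and 5.60 in *ninja-1*. Like AT3G45680, it was least reduced in *ninja-1* replicate 3, a likeness that the choice by distance on these same arrays favours. Next came *LEA4-5*, a gene of the late embryogenesis abundant class linked to drought protection, at 0.47, followed by AT1G49450 at 0.49, AT1G22890 at 0.58 and AT1G78990 at 0.61. Their log2 changes lay between −1.89 (AT1G49450) and −1.20 (AT1G78990). The choice by distance to AT3G45680 builds a fall into these companions, so nothing is read from their calls. Among them *LEA4-5* alone was called lower (limma adjusted p = 0.00249), beside 0.0484% of all probe sets tested. The others had limma adjusted p-values of 0.0545 to 0.0952.

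The shared *NAXT1* and AT3G45660 set had closer companions, again over 6 arrays and 13436 named sets. AT4G29700, for an alkaline-phosphatase-like protein, was at a distance of 0.14, with values of 8.42, 8.36 and 8.41 in WT and 10.05, 9.93 and 9.77 in *ninja-1*. AT1G70810, for a lipid-binding protein of the CaLB type, was at 0.16 and *MSRB6*, for a methionine sulfoxide reductase, at 0.21. AT1G22550, the vacuolar nitrate transporter gene of the same family, was the fourth nearest at 0.28, and the peroxidase gene AT2G41480 was next at 0.30. The distance follows the genotype step in large part, because the 6 arrays form 2 groups.

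**Figure D4:**
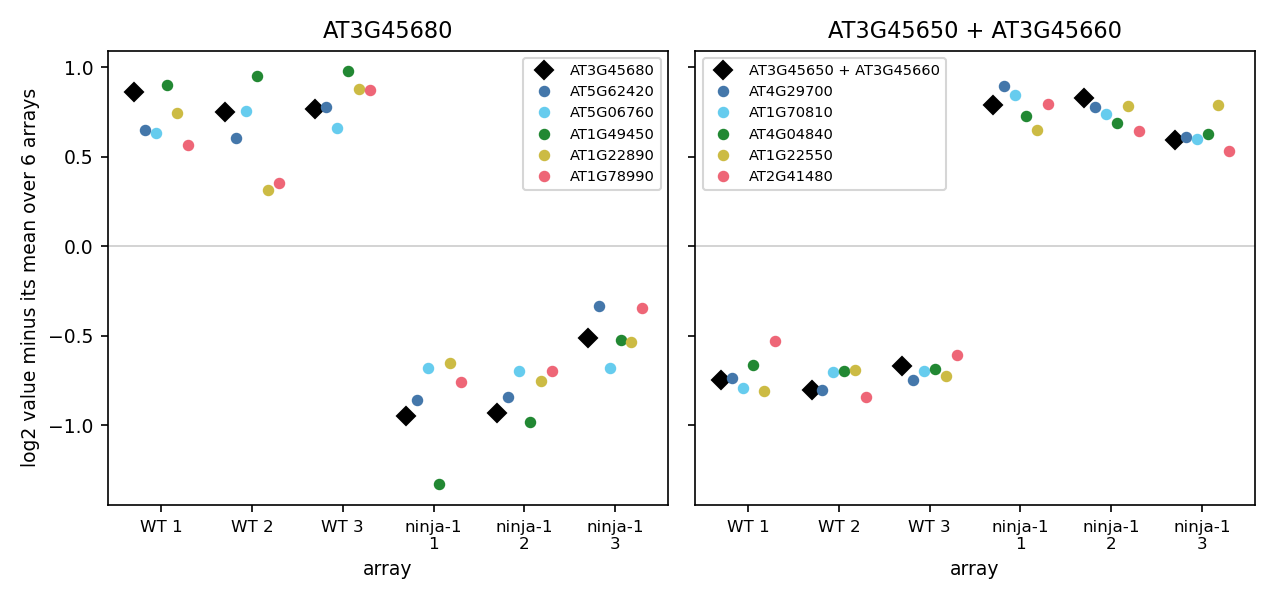
Log2 values minus their mean over the 6 arrays (vertical axis) for AT3G45680 and for the shared *NAXT1* and AT3G45660 set (black diamonds), each with the 5 named genes of smallest Euclidean distance (coloured points), by array (horizontal axis). The distances are 0.34 to 0.61 from AT3G45680 and 0.14 to 0.30 from the shared set, whose companions lie closer to it.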

How the data were processed

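Per the labels and the paper's methods, biotinylated cRNA from root total RNA was hybridized to Affymetrix ATH1 arrays, and the deposited log2 values were made by the authors in R with GCRMA (version not given in the sources used here), which corrects background from the probe sequence, quantile normalizes the arrays and summarizes each probe set. No further normalization was applied. The 64 control sets of 22810 were left out and no filter on low values was used. Genotypes came from the sample titles. The fit was limma 3.58.1 under R 4.3.3 (lmFit, eBayes, 1 genotype term, two-sided), with p-values adjusted after Benjamini-Hochberg across every tested set, and was tested on simulated data. Calls needed an adjusted p under 0.05 and a 2-fold change, the thresholds of the methods. With 3 arrays per genotype, their number limits the precision.

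Names came from the platform annotation, updated by gene ID from the TAIR10.1 RefSeq table. They give 1 gene for 13436 sets and several for 503. NPF names equal those of the gene table for the 27 of 53 family members it names. No coordinates are given, because the values name no build, and no sequences were used here. The members and gene lists were chosen with earlier results of these data known. Named genes are all members, list members and neighbours past the adjusted p or else the 3 of smallest p, and the 5 sets most alike in pattern. Exceptions are marked. Each gene of a list is given by its brightest set. Alternatives covered variance moderation, filters on dim sets, median centring, quantile normalization, a replicate block, array weights, linear means, removal of cross-hybridizing sets and leaving out each array.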

Additional observations from a re-analysis of the deposited data

How the results depend on the processing

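The direction of the shared *NAXT1* and AT3G45660 set, of AT3G45680, AT3G45700 and AT3G45710 was the same in every alternative in which they were measured, and no neighbouring gene was called in any. AT3G45700 and AT3G45710 passed the adjusted p in none (0.164 to 0.682 and 0.0744 to 0.514). Without cross-hybridizing sets 0 transporter sets were called higher, since the shared set is then left out. Without moderation of the variance 0 transporter sets and 5 sets in all were called lower. With dim sets left out (above 4 in at least 3 arrays), 14230 sets were tested, and 170 were called higher and 58 lower. Of the other NPF genes that remained, 5 were higher and 1 lower past the adjusted p in limma. AT1G72140 (adjusted p = 0.00173) and AT1G22570 (0.00868) were added to the higher and AT2G40460 (0.0174) to the lower. With a mean above 3 required the numbers were 171, 59, 5 and 1, and after median centring 170, 40, 5 and 1. With 1 array left out, 33 to 83 sets were called higher and 3 to 12 lower, 0 to 1 transporter sets higher and 0 to 1 lower, and 1 to 2 of the other NPF genes were higher and 0 to 1 lower. The share of all sets past the adjusted p is not given for these alternatives, so nothing is read from their NPF counts. The causes were not tested. No pairing of the replicate numbers is described, and same-numbered arrays shared deviations weakly (r = 0.10, 0.05 and 0.16 across probe sets). With a replicate block, 0 sets were called higher and 0 lower, 0 transporter sets were called either way, and 0 of the other NPF genes were higher. Background limits the dim sets, and the 2 transporter sets on the floor cannot show a fall.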

Other observations

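In *ninja-1* replicate 3 each of the 4 transporter sets off the floor lay nearer to the WT mean than in the other *ninja-1* arrays. The same array was the nearest to WT for 53 of the 123 called probe sets (43.1%), against 32 for replicate 1 and 38 for replicate 2. The part of this array in the transporter values was not tested beyond leaving it out, which gave log2 changes of 1.55 for the shared *NAXT1* and AT3G45660 set and −1.73 for AT3G45680.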
